A study of Mus musculus with 8 samples.

Results

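The 3 transforming growth factor beta (TGF-beta) ligand genes, their 3 receptor genes and 4 SMAD genes were followed after transfection of a microRNA into mSCC-20, a cell line from a squamous carcinoma of mouse skin (strain FVB/N). The 10 genes were Tgfb1, Tgfb2, Tgfb3, Tgfbr1, Tgfbr2, Tgfbr3, Smad2, Smad3, Smad4 and Smad7. They were found by gene name among the non-control probes of single-colour Agilent mouse arrays, where they had 17 of 39429 probes, and they make up 10 of 30139 gene names. The groups were cells transfected with miR-193b (2 arrays, amount label 0.2 µg), cells transfected with miR-365a (2 arrays, 0.6 µg) and cells given the control microRNA NC (4 arrays, 2 with the label 0.2 µg and 2 with 0.6 µg). All 8 arrays carried Cy3-labelled material from total RNA of this line. The controls had been transfected too, as their transfection label names NC. The line is a single one, and since no label tells whether arrays of a group stand for separate cultures, a p-value here reflects array-to-array spread that may be technical. Each microRNA was compared with the NC arrays of its own amount, called the 0.2 set (NC replicates 1 and 2) and the 0.6 set (NC replicates 3 and 4).

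TGF-beta ligands are secreted in a latent form and, once freed, bind the type II receptor TGFBR2, which recruits and activates the type I receptor kinase TGFBR1. The activated receptor phosphorylates SMAD2 and SMAD3, which join SMAD4 and enter the nucleus to regulate target genes, while SMAD7, itself a target, blocks the receptor. In epidermis the pathway is known for restraining keratinocyte division, and in advanced squamous carcinomas for promoting invasion.

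Mouse microRNAs that match the names of the transfected ones are shown here because every comparison turns on them. The transfection labels give neither the species nor the arm, so it is assumed that the transfected molecules had these sequences. The mature sequences are those of RefSeq (GRCm38.p6), with the seed, bases 2 to 8, in capitals.
mmu-miR-193b-3p: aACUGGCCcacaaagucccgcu
mmu-miR-365-3p: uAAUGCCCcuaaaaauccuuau
The seeds differ, so the microRNAs belong to different seed groups. The first lies in Mir193b at chr16:13449570-13449591. The second is given by RefSeq for Mir365-1 at chr16:13453895-13453916 and for Mir365-2 at chr11:79726467-79726488, all on the plus strand. The DNA complement of the miR-193b seed, GGCCAGT, read on the probe strand, was in 116 of 39429 probes (0.294%), and that of the miR-365 seed, GGGCATT, in 123 (0.312%). None of the 17 probes of the 10 genes held either (0 of 17 for each), which says only that these letters are not in those short windows.

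Levels are given as normalised log2 signal, the log2 of the spot intensity minus the array's 75th percentile over gene spots, so that 0 is the level of that percentile. Of 43020 gene spots, 51.4 to 54.6% were well above background on arrays of the 0.2 set and 58.9 to 62.1% in the 0.6 set, and no spot was saturated (0 on each array). Between the NC arrays of the sets 15.5% of 17849 genes passed the test, so levels were compared only within a set. Keratinocyte markers were well above background on every array (10 of 10), as were those of simple epithelium (3 of 3). Of the fibroblast markers 1 of 7 was, and Col3a1, Lum and Dcn were on none. For endothelium this held for 2 of 5, with Cdh5 and Tek on none, and for melanocytes for 1 of 4, with Dct on none. Of the leukocyte markers 4 of 6 were on every array (Cd68, Csf1r, Cd3e and Itgam), while Ptprc was on 2 arrays. In units of the 75th percentile, the summed leukocyte level was 4.78 to 4.92 after miR-193b against 4.51 to 4.84 in NC, and 9.21 to 10.2 after miR-365a against 6.38 to 8.20 in NC. The summed level of simple epithelium was 155 to 189 after miR-193b against 160 to 173 in NC, and 156 to 163 after miR-365a against 112 to 130 in NC. For keratinocytes it was 679 to 719 after miR-193b against 520 to 536 in NC, and 593 to 742 after miR-365a against 653 to 749 in NC. The part of these markers in the results below was not tested.

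Smad3 was the gene of the 10 that passed the test, and it did so after miR-365a, where it fell. After miR-193b none of the 9 measured genes passed (0 of 9), and their log2 differences lay between -0.98 and 0.34. The test was limma's fit over 17849 genes, with calls made where the adjusted p was under 0.05. It called 2.86% of all genes after miR-193b, 1.71% as higher and 1.14% as lower. After miR-365a it called 15.8%, 7.77% as higher and 7.99% as lower. Tgfb2 was the 1 gene of the 10 not tested, because it was not well above background on both arrays of any combination of transfection and set. In cultures measured as a whole, fewer cells of a type and less RNA per cell cannot be told apart.

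**Figure D1:**
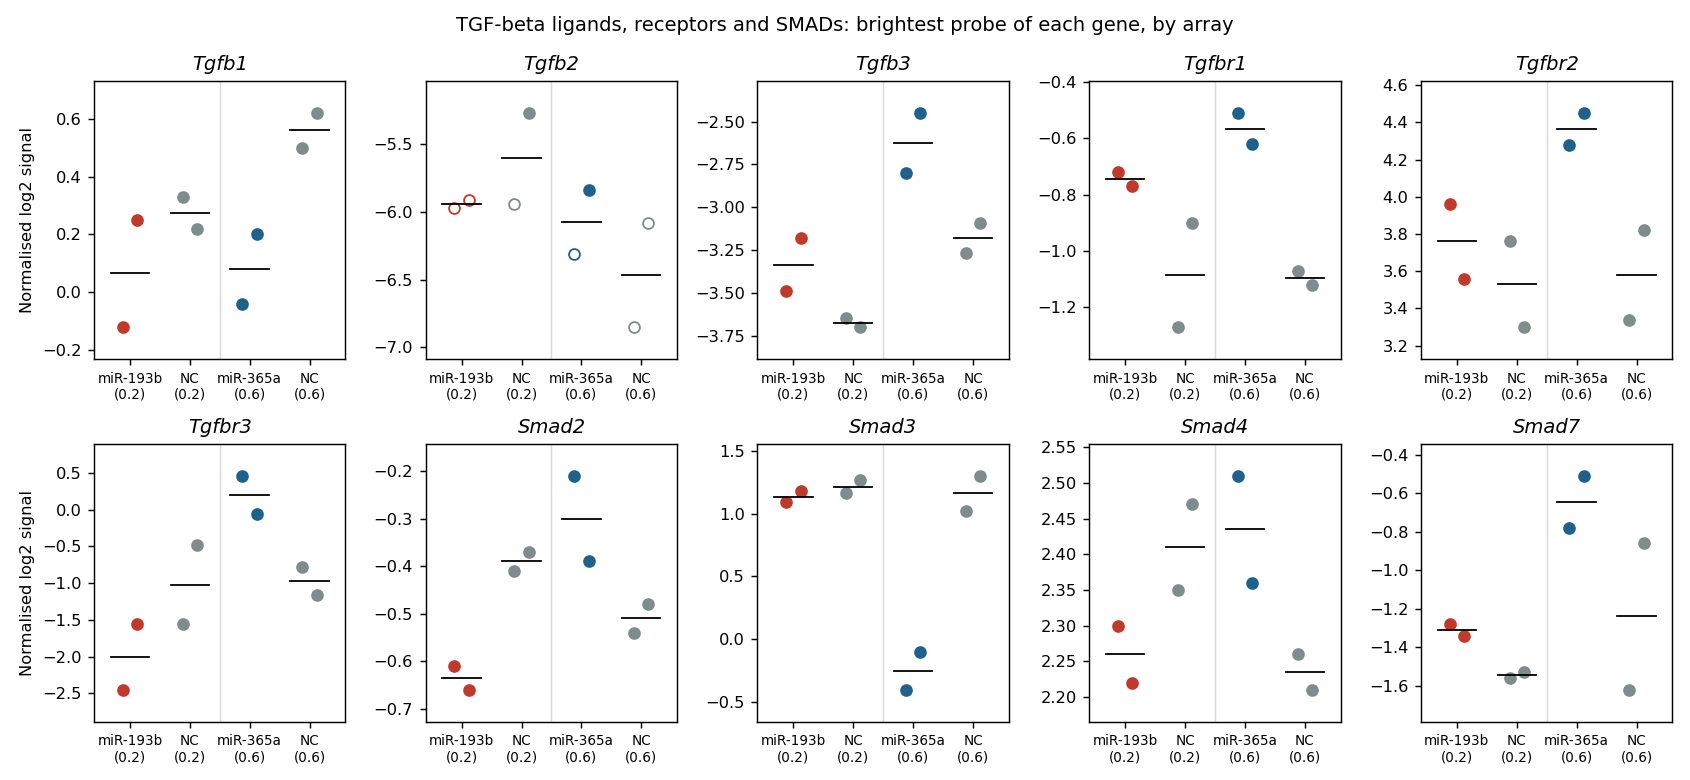
Normalised log2 signal (y axis, own scale in each panel) of the brightest probe of the 10 genes on each array, with each microRNA left of the NC arrays of its amount in µg; points are arrays, lines are means, and open points are arrays on which the probe was not well above background. Both Smad3 points after miR-365a, -0.40 and -0.10, lie far below both NC points of the 0.6 set, 1.02 and 1.30.

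Among the ligands, Tgfb1, the most widely studied isoform, had levels of -0.12 and 0.25 after miR-193b against 0.33 and 0.22 in NC. These arrays overlapped, and the log2 difference was -0.21 ± 0.17 (SE, adjusted p = 0.493). After miR-365a Tgfb1 had -0.04 and 0.20 against 0.50 and 0.62 in NC. Both miR-365a arrays lay below both NC arrays, but the difference of -0.48 ± 0.17 did not pass the test (adjusted p = 0.104). Tgfb3, a ligand known for palate fusion, had -3.49 and -3.18 after miR-193b against -3.65 and -3.70 in NC, a difference of 0.34 ± 0.17 (adjusted p = 0.321). After miR-365a it had -2.80 and -2.45 against -3.27 and -3.09 in NC, a difference of 0.56 ± 0.17 (adjusted p = 0.0817). The microRNA arrays lay above the NC arrays in both sets without passing the test. Tgfb1 and Tgfb3 were each measured by 10 spots of 1 probe, averaged on each array.

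Tgfb2, the remaining ligand, was close to background. Its brighter probe was well above background on 2 of 8 arrays, NC replicate 2 and miR-365a replicate 2. The levels were -5.97 and -5.91 after miR-193b against -5.94 and -5.27 in NC, and -6.31 and -5.84 after miR-365a against -6.85 and -6.08 in NC. In both sets the arrays overlapped. The other Tgfb2 probe was well above background on 0 of 8 arrays.

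Of the receptors, Tgfbr1, the type I kinase, had -0.72 and -0.77 after miR-193b against -1.27 and -0.90 in NC. After miR-365a it had -0.51 and -0.62 against -1.07 and -1.12 in NC. In both sets the microRNA arrays lay above the NC arrays, by 0.34 ± 0.15 after miR-193b (adjusted p = 0.251) and by 0.53 ± 0.15 after miR-365a (adjusted p = 0.0600), and neither passed the test. Without NC replicate 1 or without NC replicate 2 the miR-365a difference had the same size of 0.53. Those arrays belong to the 0.2 set and enter the miR-365a comparison only through the shared estimate of the spread. The other 3 Tgfbr1 probes were well above background on 3, 1 and 0 arrays. One of them, A_55_P1960901, had -0.75 on NC replicate 2 and -8.73 to -6.27 on the other 7 arrays, from 1 spot on each array.

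Tgfbr2, the type II kinase that binds the ligand, was read by 2 probes that were well above background on all 8 arrays. The brighter had 3.96 and 3.56 after miR-193b against 3.76 and 3.30 in NC, with overlap and a difference of 0.23 ± 0.24 (adjusted p = 0.610). After miR-365a it had 4.28 and 4.45 against 3.34 and 3.82 in NC. Here the groups were apart, and the difference of 0.79 ± 0.24 did not pass the test (adjusted p = 0.0793). On the second probe, A_55_P2107288, miR-365a arrays had -0.58 and -0.32 against -0.97 and -0.56 in NC, which overlapped, with a difference of 0.31 ± 0.25 (adjusted p over probes = 0.460).

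Tgfbr3, betaglycan, a co-receptor that presents ligand to TGFBR2, varied most between arrays, with a standard error of 0.45 against 0.11 to 0.25 for the other 8 measured genes. It had -2.45 and -1.56 after miR-193b against -1.56 and -0.48 in NC, and 0.46 and -0.06 after miR-365a against -0.78 and -1.16 in NC. The miR-193b arrays met the NC range at its lower end, and the miR-365a arrays lay above theirs. The difference was -0.98 ± 0.45 after miR-193b (adjusted p = 0.267), with -1.52 without NC replicate 1, -0.44 without NC replicate 2 and -0.54 without miR-193b replicate 1. After miR-365a the difference was 1.17 ± 0.45 (adjusted p = 0.132). Although opposite in sign, the 2 effects were not shown to differ from each other: the miR-193b effect minus the miR-365a effect was -2.16 ± 0.63, with an adjusted p of 0.126.

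Of the SMADs that the receptor phosphorylates, Smad3 had 1.09 and 1.18 after miR-193b against 1.16 and 1.27 in NC, and -0.40 and -0.10 after miR-365a against 1.02 and 1.30 in NC. The arrays overlapped in the 0.2 set, while both miR-365a arrays lay more than 1 log2 unit below both NC arrays. After miR-365a Smad3 fell by 1.41 on the log2 scale (SE 0.16, 95% interval -1.79 to -1.03), which is 2.66-fold, with an adjusted p of 0.00525 and rank 279 by p among 17849 genes. After miR-193b the difference was -0.08 ± 0.16 (interval -0.46 to 0.30, adjusted p = 0.792).

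Both Smad3 probes gave the same call after miR-365a. The brighter, A_55_P2101001, lies at chr9:63494574-63494633 and the second, A_51_P441022, at chr9:63497492-63497551, both on the minus strand of mm9, per the files. A gene annotation of that build was not used here, so their place in exon or UTR is not given. The second had -5.83 and -5.77 after miR-365a against -4.71 and -4.46 in NC, and it fell by 1.21 on the log2 scale (SE 0.14, adjusted p over 23274 probes = 0.00591), where 15.7% of probes were called. In the 0.2 set it had -3.46 and -3.33 after miR-193b against -3.57 and -3.76 in NC, a difference of 0.27 ± 0.14 (adjusted p = 0.333, where 2.31% of probes were called). The second probe also differed between the NC arrays of the sets, by -0.92 ± 0.14 for the 0.6 set minus the 0.2 set (adjusted p = 0.0135), which the brighter probe did not pass (-0.06 ± 0.16, adjusted p = 0.824).

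**Figure D2:**
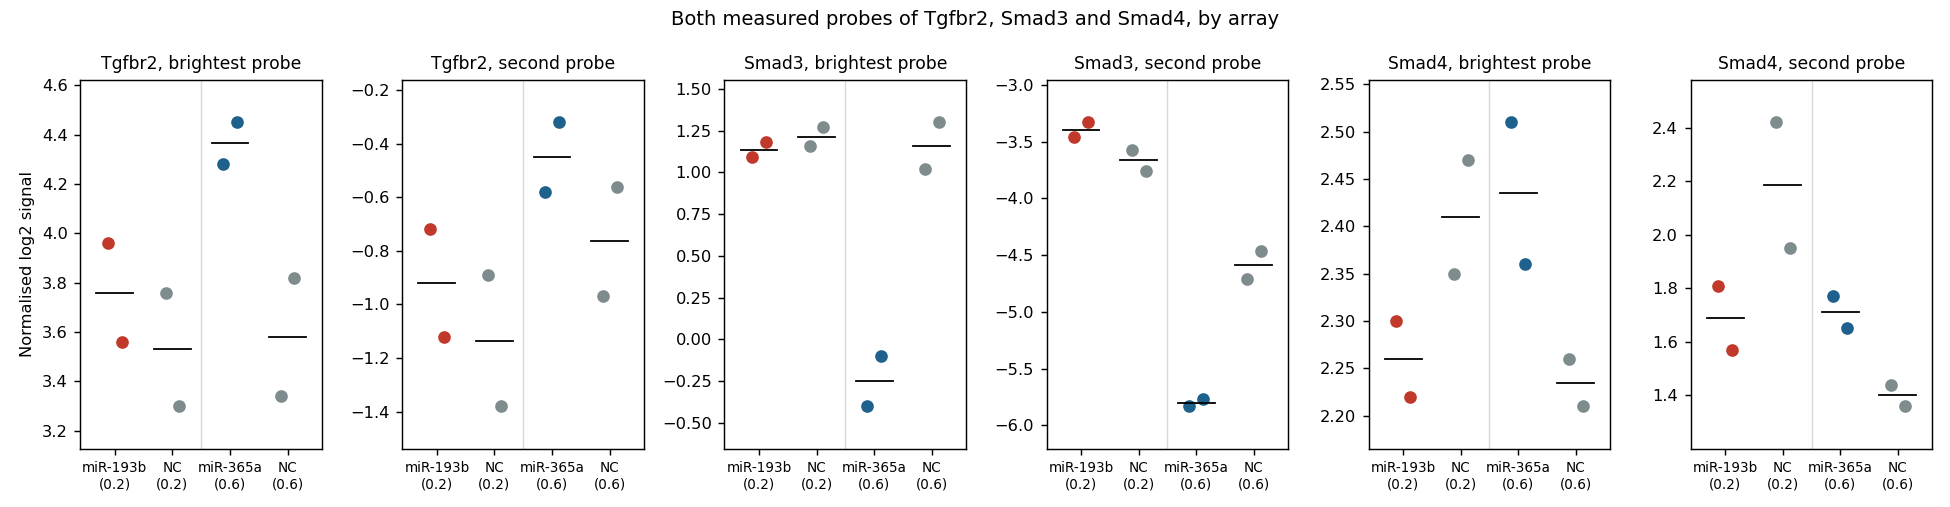
Normalised log2 signal (y axis, own scale in each panel) of both measured probes of Tgfbr2, Smad3 and Smad4 on each array, with each microRNA left of the NC arrays of its amount in µg; points are arrays and lines are means. Both Smad3 probes are lower on both miR-365a arrays than on both NC arrays of the 0.6 set, by 1.41 and 1.21 on average.

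The Smad3 effect itself differed between the comparisons of the microRNAs. Since each microRNA was in its own set, a difference between microRNAs cannot be told apart from one between sets. The miR-193b effect minus the miR-365a effect was 1.33 ± 0.22 on the log2 scale (interval 0.79 to 1.87, adjusted p = 0.0353), where 3.47% of all genes were called. On the second probe it was 1.48 ± 0.20 (adjusted p over probes = 0.0226, where 3.28% of probes were called). The call on this difference was lost whichever of the 8 arrays was left out (adjusted p 0.0569 to 0.112), with the size between 1.18 and 1.48 over all 16 alternatives. The fall after miR-365a remained called without any 1 of the 8 arrays (adjusted p 0.0109 to 0.0375).

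Smad2, the other receptor-activated SMAD, had -0.61 and -0.66 after miR-193b against -0.41 and -0.37 in NC, and -0.21 and -0.39 after miR-365a against -0.54 and -0.48 in NC. The microRNA arrays lay below NC in the 0.2 set and above NC in the 0.6 set. The differences, -0.24 ± 0.11 (adjusted p = 0.283) and 0.21 ± 0.11 (adjusted p = 0.280), did not pass the test. Their own difference, -0.45 ± 0.16, did not pass either (adjusted p = 0.193).

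Smad4, the shared partner of the activated SMADs, had 2.30 and 2.22 after miR-193b against 2.35 and 2.47 in NC, a difference of -0.15 ± 0.12 (adjusted p = 0.492). After miR-365a it had 2.51 and 2.36 against 2.26 and 2.21 in NC, a difference of 0.20 ± 0.12 (adjusted p = 0.310). Groups were apart in both sets, on opposite sides. Its second probe, A_55_P2112617, had the same signs, with -0.50 ± 0.18 after miR-193b (adjusted p = 0.198) and 0.31 ± 0.18 after miR-365a (adjusted p = 0.322). Smad7, the inhibitory SMAD, had -1.28 and -1.34 after miR-193b against -1.56 and -1.53 in NC, a difference of 0.23 ± 0.25 (adjusted p = 0.613). After miR-365a it had -0.78 and -0.51 against -1.62 and -0.86 in NC, a difference of 0.59 ± 0.25 (adjusted p = 0.166). The microRNA arrays lay above NC in both sets, but the miR-365a value depended on which NC array was used. It was 0.98 without NC replicate 4 (adjusted p = 0.0372) and 0.21 without NC replicate 3.

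**Figure D3:**
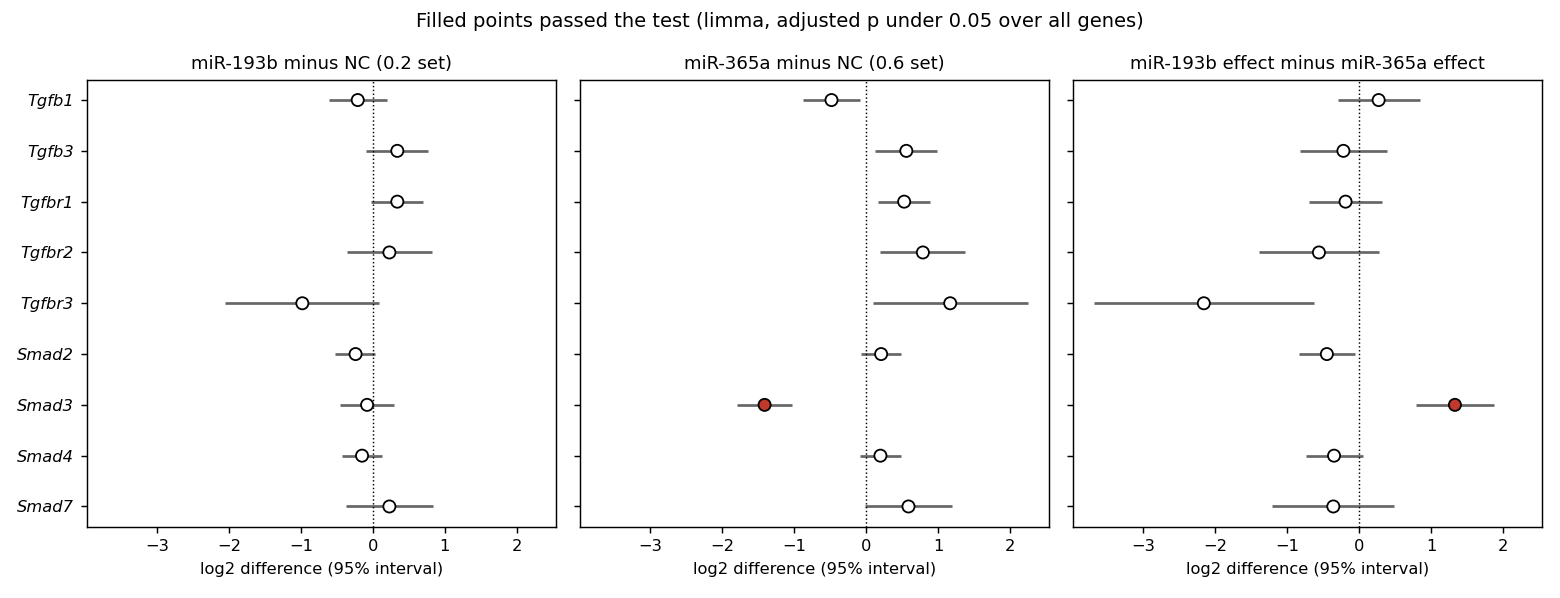
Log2 differences (x axis) of the 9 measured genes with 95% intervals from the fit, for miR-193b minus NC, miR-365a minus NC and the miR-193b effect minus the miR-365a effect; filled points passed the test over all genes. Filled points are Smad3 after miR-365a, -1.41, and Smad3 in the difference between the effects, 1.33.

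Over the 9 measured genes, 4 differences were positive and 5 negative after miR-193b, with a median of -0.08 against 0.05 for all genes tested. None had an unadjusted p under 0.05 (0 of 9), which 21.3% of all genes had. Arrays of miR-193b and NC did not overlap for 5 of the 9, against 52.2% of all genes, with 3 higher (29.9% of all genes) and 2 lower (22.3%). The 95% intervals ran from the narrowest, Smad2 at -0.52 to 0.03, to the widest, Tgfbr3 at -2.06 to 0.09 on the log2 scale. After miR-365a, 7 differences were positive and 2 negative, with a median of 0.53 against 0.02 for all genes. Arrays of miR-365a and NC did not overlap for 9 of the 9, against 61.6% of all genes, with 7 higher (33.7% of all genes) and 2 lower (27.9%). An unadjusted p under 0.05 was reached by 6 of the 9, which 31.2% of all genes reached: Tgfb3, Tgfbr1, Tgfbr2 and Tgfbr3 with positive and Tgfb1 and Smad3 with negative differences. After the adjustment 1 of the 9 was called, against 15.8% of all genes.

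The genes most like Smad3 across the 8 arrays, by Pearson's r of the level minus the NC mean of the set, were Gm7241 (r = 0.997), Mslnl (0.995), Bloc1s2 (0.993), Sntb2 (0.992) and Sec22c (0.991). Their miR-365a differences were -1.53, -1.55, -1.50, -0.70 and -0.75, in that order, and their miR-193b differences lay between -0.13 and -0.05. All of these correlations share the same 8 arrays and their NC means. The genes were picked for this likeness to Smad3, so the pattern of their differences follows from the choice. For Tgfbr1, the gene with the smallest p after miR-193b, they were Pdhb (0.989), Tmem230 (0.987), Naip6 (0.986), Aifm1 (0.985) and Chmp7 (0.984).

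Of 93 other genes of the pathway in 4 lists, 83 were tested. After miR-193b 2 of the 83 rose and 0 fell, which is 2.41% against 2.86% of all genes. After miR-365a 8 rose and 8 fell, which is 19.3% against 15.8% of all genes. Without either miR-365a array, or without NC replicate 3 or 4, the miR-365a count was lower, and so was the count over all genes. Such a fit leaves 1 array in a group, so the lower counts are not read as particular to the pathway genes.

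Among 14 of 17 genes of extracellular latency and activation, which hold TGF-beta latent in the matrix or free it, 1 rose and 0 fell after miR-193b, where 2.86% of all genes were called, with a median difference of 0.24 against 0.05 for all genes. There 4 of the 14 had an unadjusted p under 0.05, against 21.3% of all genes. After miR-365a 3 rose and 1 fell, where 15.8% of all genes were called, with a median of -0.0012 against 0.02. In that comparison 5 of the 14 had an unadjusted p under 0.05, against 31.2% of all genes. Vasn encodes vasorin, a membrane protein that binds TGF-beta. It had -2.14 and -2.44 after miR-193b against -3.90 and -4.29 in NC, and rose by 1.81 ± 0.17 (adjusted p = 0.0186). After miR-365a it had -1.24 and -1.31 against -2.20 and -2.21 in NC, and rose by 0.93 ± 0.17 (adjusted p = 0.0193). These arrays were apart in both sets, as they were for 52.2% of all genes after miR-193b and 61.6% after miR-365a. A second Vasn probe gave 0.44 after miR-193b, which was not called, and 1.23 after miR-365a, which was. The miR-193b call was lost without miR-193b replicate 1, miR-365a replicate 1 or miR-365a replicate 2 (adjusted p up to 0.0561), with the mean of probes (1.12, adjusted p = 0.0617), without a filter on dim probes (0.0782) and within the 0.2 set alone (0.136). It was kept at a smaller size with normexp background correction (1.20) and with the deposited log2 values (1.09). The miR-365a call was lost without any 1 array of the 0.6 set (up to 0.103) and without the filter (0.0624).

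Itgb5, the integrin beta 5 chain, had 3.19 and 3.19 after miR-365a against 1.93 and 2.11 in NC, and rose by 1.17 ± 0.13 (adjusted p = 0.00492). Lrrc32, known as GARP, an anchor of latent TGF-beta on the cell surface, had 1.97 and 2.20 after miR-365a against -0.05 and 0.40 in NC, and rose by 1.92 ± 0.30 (adjusted p = 0.0126). Furin, a protease that cleaves the TGF-beta precursor, had 0.17 and 0.31 after miR-365a against 1.31 and 1.63 in NC, and fell by 1.23 on the log2 scale (SE 0.18, adjusted p = 0.0105). For all 3, named because they were called, the groups were apart, as they were for 61.6% of all genes. The Itgb5 call was kept without any 1 of the 8 arrays. The Furin call was lost without either miR-365a array (up to 0.0697), and the Lrrc32 call without either miR-365a array or NC replicate 3 (up to 0.0768).

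Activins form a related branch that signals through SMAD2 and SMAD3, but the next list also held Smad1, Smad5, Smad6 and Smad9. Among 13 of 16 genes of activins, their receptors and other SMADs, 0 rose and 0 fell after miR-193b. Of all genes 2.86% were called, and the list median was 0.04 against 0.05 for all genes. There 2 of the 13 had an unadjusted p under 0.05, against 21.3% of all genes. After miR-365a 0 rose and 3 fell, where 7.77% of all genes were called as higher and 7.99% as lower, with a median of -0.30 against 0.02. In that comparison 4 of the 13 had an unadjusted p under 0.05, against 31.2% of all genes. Fst, the activin-binding protein follistatin, had 2.66 and 2.93 after miR-365a against 4.01 and 4.96 in NC, and fell by 1.69 on the log2 scale (SE 0.34, adjusted p = 0.0238). The activin type II receptors fell too, as Acvr2b fell by 0.61 (SE 0.10, adjusted p = 0.0144) and Acvr2a fell by 0.74 (SE 0.17, adjusted p = 0.0369). Arrays were apart for all 3, named because they were called, and for 61.6% of all genes. The Acvr2b call was lost without any 1 array of the 0.6 set (up to 0.0887), and the Fst call without either miR-365a array or NC replicate 4 (up to 0.121). The Acvr2a call was lost without either miR-193b array, miR-365a replicate 2, NC replicate 3 or NC replicate 4 (up to 0.172), and within the 0.6 set alone (0.0772). Without a filter on dim probes all 3 calls were lost (adjusted p = 0.0591 for Acvr2b, 0.0673 for Fst and 0.104 for Acvr2a).

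Among 26 of 28 regulators of the receptors and SMADs, 0 passed the test after miR-193b, where 2.86% of all genes were called, with a median of 0.03 against 0.05. There 2 of the 26 had an unadjusted p under 0.05, against 21.3% of all genes. After miR-365a 2 rose and 2 fell, where 15.8% of all genes were called, with a median of 0.02, as for all genes. In that comparison 7 of the 26 had an unadjusted p under 0.05, against 31.2% of all genes. Wwp1, a ubiquitin ligase that acts on the type I receptor, had -5.72 and -5.17 after miR-365a against -3.82 and -3.93 in NC, and fell by 1.57 on the log2 scale (SE 0.23, adjusted p = 0.0103). Trim33, known as TIF1-gamma, which binds SMAD2 and SMAD3 and acts on SMAD4, fell by 0.96 (SE 0.15, adjusted p = 0.0129). Rnf111, known as Arkadia, a ubiquitin ligase that removes SMAD7 and SKI proteins, rose by 0.58 ± 0.12 (adjusted p = 0.0271). Smurf2, a ubiquitin ligase brought to the receptor by SMAD7, rose by 0.55 ± 0.14 (adjusted p = 0.0487), and its other 2 probes, at 0.21 and 0.42, were not called. The Smurf2 call was lost without any 1 of the 8 arrays (adjusted p 0.0514 to 0.214), and the Rnf111 call without any array other than NC replicate 1 or 2 (up to 0.142). The Wwp1 call was lost without miR-365a replicate 1 or NC replicate 3 (up to 0.0625), and the Trim33 call without either miR-365a array or NC replicate 3 (up to 0.0800). Without a filter on dim probes or within the 0.6 set alone the Rnf111 and Smurf2 calls were lost (adjusted p 0.0563 to 0.136). The Wwp1 difference was smaller, though called, with normexp (-0.84) and with the deposited log2 values (-0.70).

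Among 30 of 32 genes known to respond to TGF-beta, 1 rose and 0 fell after miR-193b, where 2.86% of all genes were called, with a median of -0.17 against 0.05. There 5 of the 30 had an unadjusted p under 0.05, against 21.3% of all genes. After miR-365a 3 rose and 2 fell, where 15.8% of all genes were called, with a median of -0.02 against 0.02. In that comparison 11 of the 30 had an unadjusted p under 0.05, against 31.2% of all genes. Tgfbi, an extracellular matrix protein named for its induction by TGF-beta, had 2.09 and 2.28 after miR-193b against 0.99 and 0.95 in NC, and rose by 1.21 ± 0.18 (adjusted p = 0.0341). After miR-365a its difference was -0.11 ± 0.18. The Tgfbi call was lost without any 1 of the 8 arrays (adjusted p 0.0549 to 0.136, difference 1.11 to 1.31), without a filter on dim probes (0.122) and within the 0.2 set alone (0.136).

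Klf10, an early TGF-beta-induced transcription factor, had 1.13 and 1.24 after miR-365a against 2.11 and 2.15 in NC, and fell by 0.94 on the log2 scale (SE 0.13, adjusted p = 0.00804). The groups were apart, as they were for 61.6% of all genes. The Klf10 difference after miR-193b was 0.05 ± 0.13 (adjusted p = 0.840).

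Other responsive genes were higher after miR-365a. Cdkn2b, the cell-cycle inhibitor p15, had 0.29 and 0.38 after miR-365a against -1.42 and -0.96 in NC, and rose by 1.53 ± 0.20 (adjusted p = 0.00780), with 1.82 on its second probe. Zeb2, a repressor of epithelial genes, had -6.06 and -5.52 after miR-365a against -7.67 and -8.24 in NC, where it was not well above background. The log2 difference from these values, 2.17 ± 0.29, passed the test (adjusted p = 0.00838), but its size rests on the dim NC values. A bound on the size, which was not itself tested, was at least 1.45-fold higher. The call depended on the background correction, since the log2 difference was 0.26 with normexp (adjusted p = 0.320) and 0.32 with the deposited log2 values (0.0740), below that bound. The bound sets the mean of the miR-365a arrays against, for each NC array, the higher of the probe's own level and the dimmest level that still counted as well above background there. Id3, an inhibitor of differentiation factors named here after its value was seen, rose by 0.94 ± 0.15 (adjusted p = 0.0117). The Klf10 call was lost without miR-365a replicate 1 (adjusted p = 0.0574), the Cdkn2b and Zeb2 calls without miR-365a replicate 2 (0.0544 and 0.0535), and the Id3 call without either miR-365a array or NC replicate 4 (up to 0.0756).

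**Figure D4:**
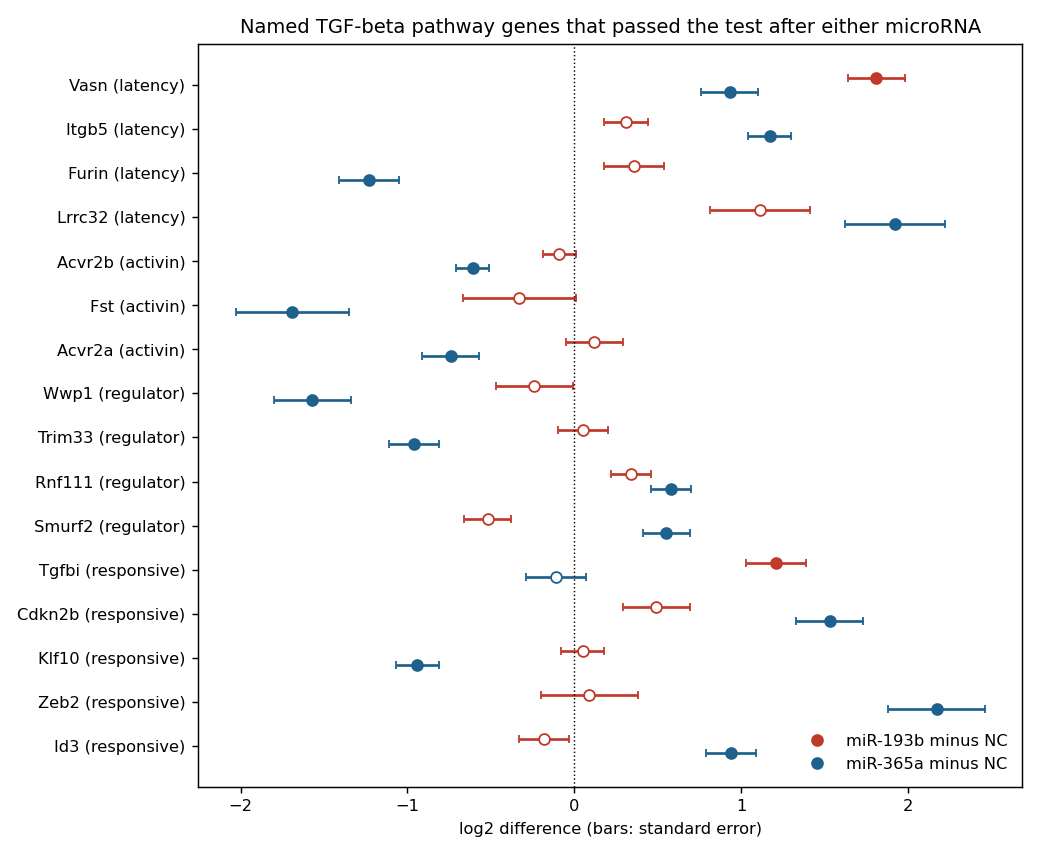
Log2 differences (x axis) with standard errors of the named pathway genes, other than the ligands, receptors and SMADs, that passed the test after either microRNA, with the list of each gene in brackets; filled points passed the test. Vasn is filled in both comparisons, at 1.81 after miR-193b and 0.93 after miR-365a. Zeb2 was not well above background in NC of the 0.6 set, and its call was lost with normexp and with the deposited log2 values.

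The effects of the microRNAs on these genes differed by the test of the difference for Furin (adjusted p = 0.0327), Smurf2 (0.0471), Klf10 (0.0421) and Id3 (0.0442), where 3.47% of all genes were called. For Smurf2, Klf10 and Id3 this call was lost without any 1 of the 8 arrays, and for Furin without any array other than NC replicate 2, with adjusted p up to 0.148. Without a filter on dim probes it was lost for all 4 (adjusted p 0.116 to 0.156), and for Smurf2 also with the mean of probes (0.0613). Here too, a difference between microRNAs cannot be told apart from one between sets. Only genes already called against NC were looked up for this. All 4 had been called after miR-365a, whose values enter the difference too, so the 3.47% of all genes is not a like share.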

How the data were processed

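Single-colour array intensities were background-subtracted and detrended within each array by the deposited scanner output, per the file headers (Agilent Feature Extraction 10.7.3.1). The submitters' processing notes name limma. The deposited log2 values of the same arrays served as an alternative, and their background correction is not given in the sources used here. Control and outlier-flagged spots were left out, log2 intensities were centred on each array's 75th percentile, spots of a probe were averaged, and genes were named through RefSeq accessions and symbols where these matched (27502 and 3549 of 39429 probes) or synonyms (404), otherwise by the files' name (7974). The brightest probe stood for a gene, tested if both arrays of some group and set, of 4 such pairs, had it well above background.

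limma 3.58.1 in R 4.3.3 (lmFit, eBayes) fitted set, miR-193b and miR-365a on all 8 arrays (4 residual degrees of freedom, prior 2.31), with Benjamini-Hochberg adjustment over all 17849 genes or 23274 probes, after a check on simulated data. Tables and plots used Python 3.11.15, pandas 2.3.3, numpy 2.4.6 and matplotlib 3.10.9. Precision is limited by the number of arrays. The members and lists were chosen with earlier results of these data known. Named were all 10 members, up to 4 called genes of each list by smallest p, and the 5 genes most like the member with the smallest p. A gene that this rule selects is not reported here. Alternatives changed the normalization, background correction, values, filter, variance model, slide, probe choice and arrays.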

Additional observations from a re-analysis of the deposited data

Results flagged for a closer look

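The Smad7 level on NC replicate 4, -0.86, stood apart from the other 3 NC arrays, which had -1.62 to -1.53, with a gap of 0.882 of the whole range. Of 17 probes of the 10 genes checked over the 4 NC arrays it was the 1 that passed Dixon's critical value at the 95% level, and chance alone flags some probes in such a check. The 4 arrays come from both sets, so a difference between sets can enter this check and its critical value is only a guide. With NC replicate 4 left out the miR-365a difference of Smad7 was 0.98, against 0.59 with it.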

How the results depend on the processing

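The fall of Smad3 after miR-365a kept its direction and its call under all 17 alternatives (-1.56 to -1.26, adjusted p 8.09e-04 to 0.0375). The difference between the microRNA effects on Smad3 lost its call in 9 of 16, the 8 that leave out an array and the one without a filter on dim probes (adjusted p = 0.129), so the count of members called there, 1, was 0 under each of these. The count of members called after miR-193b was 0 under every alternative.

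After miR-365a the count of members called, 1, was 2 with normexp, with the deposited log2 values and within the 0.6 set alone. It was 3 with the filter on all 8 arrays, with a trended robust variance and with slide as a random block (correlation 0.3044), and 1 to 2 with 1 array left out. The genes that joined Smad3 were Tgfbr1, Tgfbr2 or both, Tgfbr3 within the 0.6 set alone and Smad7 without NC replicate 4. The count of member probes called, 2, was 4 with that filter, that variance or that block. Over all genes the count called after miR-365a rose there too, from 2814 of 17849 to 3407 of 14568, 3529 and 3752, in that order. It was 3326 with normexp, 3388 with the deposited log2 values and 2332 within the 0.6 set alone. The pathway count after miR-193b, 2, was 0 without a filter or within the 0.2 set alone, 1 with the mean of probes, and 0 to 2 with 1 array left out. After miR-365a the pathway count, 16, was 10 without a filter and 5 to 17 with 1 array left out.

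Signs turned for Tgfbr2 after miR-193b without NC replicate 2 (-0.0016, and up to 0.46 with another array left out), Smad3 after miR-193b with the mean of probes (0.09), and the difference between the effects on Smad7 without NC replicate 3 (0.02, and down to -0.74 with another array left out), none of which passed the test. The cause was not tested. Slide 1 alone gave a Tgfb1 difference after miR-193b of -0.46 and slides 2 and 3 gave 0.04, values without a test. The 0.6 set lay on 1 slide. Over all genes the count called after miR-193b, 510, ranged from 0 (0.2 set alone, where 3106 had an unadjusted p under 0.05) to 1038 (trended robust variance), and was 9 to 277 with 1 array left out. After miR-365a the 2814 genes became 1057 without a filter and 589 to 2835 with 1 array left out, and the 620 of the difference between effects ranged from 0 to 1117. With 2 arrays a group, misses are no sign of equal levels. No paired analysis was possible because the replicate numbers follow the order of deposition, and the slides, which put 1 miR-193b array with 1 NC array on slide 1, gave no second such pair.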
